A study of Mus musculus with 21 samples.

Results

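The 10 genes described here are transcripts that mark the resident macrophages of the liver, the Kupffer cells, and macrophages in general. They were chosen by name, with earlier results of these data known. The question was how the transcripts of liver macrophages stood 1 and 28 days after nanosized titanium dioxide (TiO2) had been put into the airways. Of these 10 genes, among 16535 genes with a probe on the array, 9 were matched to a probe through the transcript accession that the scanner files give for it. These were Clec4f, Vsig4, Cd5l, Timd4, Marco, Csf1r, Adgre1, Lyz2 and Cd163. Cd68, a lysosomal glycoprotein of macrophages, was matched to none and is not analysed here.

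Per the labels, female C57BL/6 mice, bought at 5 to 7 weeks of age and kept for 1 to 3 weeks, received a single intratracheal dose of 162 µg nano-TiO2 or the vehicle alone. That vehicle, saline with some cell-free lavage fluid from the lungs of untreated mice, also carried the particles, so every mouse was instilled. At day 1 the vehicle group held 5 mice and the TiO2 group 6, and at day 28 they held 4 and 6. Every mouse had its own array, on which its RNA carried the red dye and Agilent's universal reference RNA for mouse the green one. The samples are labelled as liver, but the RNA protocol in the labels speaks of left lungs, and the markers that bear on this are given below. All levels are log2 ratios of liver to reference, so that 1 unit is a doubling, and because each gene has its own level in the reference RNA, the levels of different genes are not compared. The labels call the samples biological replicates of individual mice, in 1 strain and 1 sex.

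Kupffer cells line the liver sinusoids, where they take up particles, microbes and aged red cells from the blood. Their survival depends on CSF1R, the receptor for the growth factors CSF1 and IL-34, and their identity genes include lectins, scavenger receptors and complement receptors that bind such cargo. When resident cells are lost, monocytes from the blood can replace them and acquire some of these genes only slowly. Particles that leave the lung and reach the blood are known to collect in these cells. In RNA from whole liver, fewer macrophages and less RNA of these genes per macrophage cannot be told apart.

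The stretches of DNA just before the start of 3 members are shown because Clec4f and Cd5l were the pair whose levels were most alike across mice, and because Vsig4 had the lowest p-value of the members at day 28 once scan day was taken into account. They are the last 120 bases before the transcript start, from the RefSeq promoter table of GRCm38.p6, written 5′ to 3′ along the gene, with capitals for GAGGAA or its reverse complement, the core of the site bound by the myeloid factor PU.1. They lie at chr6:83656117-83656236 on the minus strand (Clec4f), chr3:87357761-87357880 on the plus strand (Cd5l) and chrX:96293439-96293558 on the minus strand (Vsig4).
Clec4f: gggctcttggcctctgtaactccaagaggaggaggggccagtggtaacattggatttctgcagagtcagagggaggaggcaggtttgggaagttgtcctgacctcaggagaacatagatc
Cd5l: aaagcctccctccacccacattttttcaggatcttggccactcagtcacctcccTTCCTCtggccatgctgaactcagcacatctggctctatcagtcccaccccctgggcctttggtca
Vsig4: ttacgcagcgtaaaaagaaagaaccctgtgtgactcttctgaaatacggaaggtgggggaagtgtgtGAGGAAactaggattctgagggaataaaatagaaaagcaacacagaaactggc
The table holds promoters for 8 of the 10 genes, with none for Csf1r and Adgre1. GAGGAA was searched on both strands of the 250 bases before each start. It was found in 4 of these 8 (Marco, Cd5l, Cd68 and Vsig4), against 23.3% of all 32851 promoters of that length. The match nearest to a start lay 53 bases before it in Vsig4, which had a second match at 155 bases, and the Cd5l match lay 66 bases before its start on the other strand. The longer GAGGAAGT, which contains the first motif, was in 0 of the 8 and in 2.44% of all promoters. A match is a run of letters and not a bound site, and no binding was measured here.

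In the liver channel the members gave signal above background, though not by the same margin. Timd4 was the dimmest, with a liver signal of 93 to 249 over a local background of 60.5 to 77. The probe that stands for each of the 9 genes, the one with the highest mean liver signal, passed the scanner software's test for signal well above background in the liver channel on 21 of 21 arrays, and it was saturated on none. The reference channel, the denominator of every ratio, was well above background on 21 arrays for Clec4f, Marco, Csf1r, Adgre1 and Lyz2 and on 20 for Cd5l. It was so on only 11 for Cd163, 7 for Vsig4 and 5 for Timd4, so the levels of these 3 rest on a reference near background on many arrays. The albumin gene Alb lay at 5.75 to 6.74. The lung markers Ager and Siglecf, the latter a receptor of alveolar macrophages, were above background on 0 of 21 arrays, the surfactant genes Sftpc and Sftpb on 2 each and Sftpa1 on 4. Others of that list were seen more often, with Ear1 on 11, the airway secretory gene Scgb1a1 on 17 and Fabp4 on 21. Liver probes above background numbered 12985 to 26616 per array. The file headers give 3 scan days, each with arrays of all 4 groups, and 9 slides. One mouse lay high throughout the members: TiO2 day 1 replicate 6 had the highest level of its group for 9 of 9 genes and of all 21 mice for 5. A check for outlying values within each group, from gap over range, flagged 0 of 36 combinations of member and group. The day 1 differences of Marco and Lyz2, and the members' median and count, are therefore also given without TiO2 day 1 replicate 6. For most other members only the range over leaving out each mouse in turn is given, at the end. The day 1 differences of other genes and lists are not given without that mouse.

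**Figure D1:**
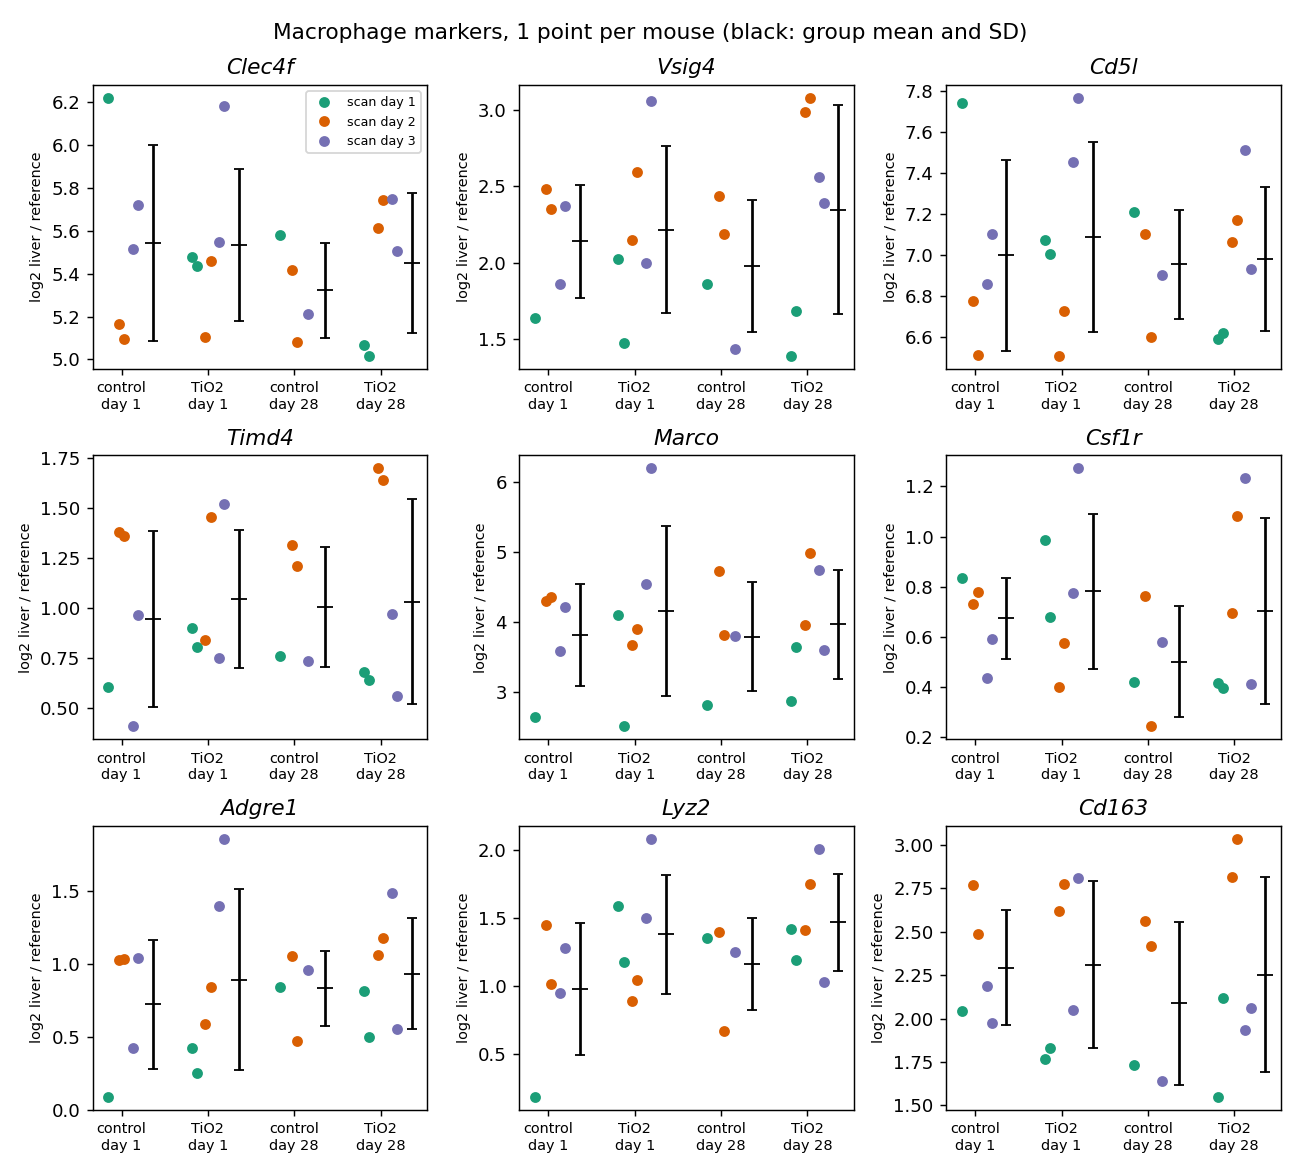
Log2 ratio of liver to reference RNA for the 9 measured members (vertical axes, each with its own range) in the 4 groups (horizontal axes), with 1 point per mouse coloured by scan day and the group mean and SD in black. The groups overlap in every panel, TiO2 day 1 replicate 6 is the highest point of its group in each, and for Vsig4, Timd4 and Cd163 the points of scan day 2 lie high.

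For every gene of Kupffer cell identity the TiO2 and control livers overlapped, and none of these genes passed at an adjusted p under 0.05. Clec4f, a C-type lectin that in mice is found on Kupffer cells, had values of 6.22, 5.16, 5.09, 5.51 and 5.72 in the day 1 controls, and from 5.10 to 6.18 with a median of 5.47 in the 6 TiO2 mice. At day 28 the controls had 5.58, 5.42, 5.08 and 5.21, and the TiO2 mice ran from 5.02 to 5.75 with a median of 5.56. The groups overlapped at both times. The highest Clec4f level of all 21 mice belonged to a control mouse at day 1, and the lowest to a TiO2 mouse at day 28. TiO2 minus control was -0.01 ± 0.20 (SE) at day 1 and 0.13 ± 0.22 at day 28.

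Cd5l, a secreted protein of macrophages that circulates bound to IgM, tracked Clec4f closely over mice, as given below. It had values of 7.74, 6.78, 6.52, 6.86 and 7.10 in day 1 controls and 6.51 to 7.76, with a median of 7.04, in TiO2 mice. The day 28 controls had 7.21, 7.10, 6.60 and 6.90, within the span of the TiO2 mice, 6.59 to 7.51 with a median of 7.00. The differences were 0.09 ± 0.23 at day 1 and 0.03 ± 0.24 at day 28, a fold of 1.06 and 1.02.

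Vsig4, the complement receptor CRIg, binds particles coated with C3 fragments. Its level was 1.63, 2.48, 2.35, 1.86 and 2.37 in the day 1 controls and 1.47 to 3.06, with a median of 2.09, in TiO2 mice. At day 28 it was 1.86, 2.44, 2.19 and 1.43 in controls and 1.39 to 3.08, with a median of 2.48, in TiO2 mice. The TiO2 mice of day 28 held both the lowest and the highest Vsig4 level of all 21 mice, and 4 of the 6 exceeded the mean of the controls. The difference was 0.08 ± 0.30 at day 1 and 0.37 ± 0.32 (1.29-fold) at day 28, the largest of the members at that time, with a 95% interval of -0.30 to 1.04. With scan day as a block it was 0.47 ± 0.22 at day 28 (unadjusted p = 0.040, adjusted p = 1.00 in limma). Within scan days 1, 2 and 3 it was -0.33, 0.73 and 1.04, each from 1 or 2 mice per group. Over the other ways of processing all arrays it ran from 0.10, with the ratios of the scanner software, to 0.47 with scan day as a block. The reference channel for Vsig4 at day 28 was above background on 0 of 4 control arrays and 2 of 6 TiO2 arrays.

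Timd4, a receptor for phosphatidylserine that is used to take up dying cells and marks long-resident Kupffer cells, was 0.94 ± 0.44 (SD, n = 5) in day 1 controls and 1.05 ± 0.35 (n = 6) with TiO2. At day 28 it was 1.00 ± 0.30 (n = 4) and 1.03 ± 0.51 (n = 6), with the full span over the 21 mice from 0.41 to 1.70. The differences, 0.10 ± 0.24 (SE) and 0.03 ± 0.25, were smaller than the SD within any group.

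Marco, a scavenger receptor for unopsonised particles and bacteria that alveolar macrophages carry too, was the most variable member. Day 1 controls had 2.64, 4.30, 4.35, 3.58 and 4.21, and TiO2 mice ran from 2.50 to 6.20 with a median of 4.00. Day 28 controls had 2.81, 4.73, 3.81 and 3.80, and TiO2 mice ran from 2.87 to 4.98 with a median of 3.80. The value of 6.20 was that of TiO2 day 1 replicate 6, and the next highest of its group was 4.55. The difference at day 1 was 0.34 ± 0.51 with all mice and -0.07 without that mouse, so its direction rested on it. At day 28 it was 0.17 ± 0.54.

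Among the general macrophage genes, Lyz2 lay farthest from control by the probe that stands for each gene. It encodes the lysozyme of macrophages and neutrophils, an enzyme that breaks down bacterial walls. Its values were 0.19, 1.45, 1.02, 0.95 and 1.28 in day 1 controls and 0.89 to 2.09, with a median of 1.34, in TiO2 mice. Day 28 controls had 1.35, 1.40, 0.67 and 1.25, and TiO2 mice ran from 1.03 to 2.01 with a median of 1.42. At both times the groups overlapped and 5 of the 6 TiO2 values exceeded the mean of the controls. The difference was 0.40 ± 0.23 (1.32-fold, 95% interval -0.08 to 0.89, unadjusted p = 0.095 in limma) at day 1 and 0.30 ± 0.25 (1.23-fold) at day 28. With scan day as a block the day 1 value was 0.43 (unadjusted p = 0.057), and with slide as a random block 0.41 (unadjusted p = 0.043), neither passing after adjustment in limma. Within scan days 1, 2 and 3 it was 1.20, -0.27 and 0.68. The day 1 value was 0.21 without control day 1 replicate 1, whose level of 0.19 was the lowest of all mice, and 0.26 without TiO2 day 1 replicate 6. A second Lyz2 probe, above background on 11 arrays, had levels of -0.23 to 0.28. Its means were 0.02 in controls and 0.07 with TiO2 at day 1, and 0.05 and 0.12 at day 28. With the mean over both probes the day 28 difference was 0.19. Lyz2 has a near-identical neighbour, Lyz1, and a probe can take up both transcripts.

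Csf1r, the growth factor receptor named above, was 0.67 ± 0.16 (SD, n = 5) in day 1 controls and 0.78 ± 0.31 (n = 6) with TiO2, and 0.50 ± 0.22 (n = 4) and 0.70 ± 0.37 (n = 6) at day 28. The differences were 0.11 ± 0.17 (SE) and 0.20 ± 0.18, with the narrowest interval of the members at day 1, -0.24 to 0.46. A second Csf1r probe was above background on every array as well, with levels of -0.33 to 0.47, and the mean over the gene's kept probes differed by 0.11 and 0.12. Adgre1, which encodes the macrophage antigen F4/80, was 0.72 ± 0.44 (SD, n = 5) and 0.89 ± 0.62 (n = 6) at day 1 and 0.83 ± 0.25 (n = 4) and 0.93 ± 0.38 (n = 6) at day 28. The Adgre1 differences were 0.17 ± 0.26 (SE) and 0.10 ± 0.27. A second Adgre1 probe, above background on 0 arrays and not kept by the filter, had levels of -0.22 to 0.17. Cd163, the scavenger receptor for haemoglobin bound to haptoglobin, was 2.29 ± 0.33 (SD, n = 5) and 2.31 ± 0.48 (n = 6) at day 1 and 2.09 ± 0.47 (n = 4) and 2.25 ± 0.56 (n = 6) at day 28. Its differences were 0.02 ± 0.27 (SE) and 0.16 ± 0.28.

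Taking the 9 genes at day 1, 8 lay higher with TiO2 and 1 lower, with a median difference of 0.10 beside -0.01 over all 17640 features tested. No member passed, as was the case for all features: adjusted p under 0.05 was met by 0% of features with the group means alone and by 0% with scan day as a block. At an unadjusted p under 0.05 there were 0 of 9 members, against 1.73% of features, and with scan day as a block 0 of 9 against 4.09%. The 2 groups failed to overlap for 0 of 9 members and for 0.108% of features. Without TiO2 day 1 replicate 6, 3 members lay higher and 6 lower and the median was -0.04, and with the ratios computed by the scanner software 4 lay higher and 5 lower, with a median of -0.08. Without any other 1 mouse, 6 to 9 members lay higher, with 9 reached without TiO2 day 1 replicate 1 or 2. Within scan days 1, 2 and 3 the median was 0.11, -0.22 and 0.51.

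At day 28, 9 of 9 members lay higher with TiO2, from 0.03 for Cd5l and Timd4 to 0.37 for Vsig4, although not in every processing: with the ratios of the scanner software, with no background subtraction and in the authors' deposited table Cd5l and Timd4 lay lower, and with scan day as a block or a smaller normexp offset Cd5l did. The median was 0.16, beside 0.00 over all features, and stayed between 0.07 and 0.22 over the 12 other ways of processing all arrays. Among those ways, the other filters on dim probes and the fit of only the groups compared left the members' differences unchanged. By adjusted p, 0% of features passed with either model. Unadjusted p under 0.05 was met by 0 of 9 members and 0.93% of features, and with scan day as a block by 1 of 9, Vsig4, and 3.07% of features. The groups did not overlap for 0 of 9 members and 0.289% of features. Within scan days 1, 2 and 3 the median was -0.10, 0.41 and 0.32, and 2, 9 and 9 members lay higher. Without TiO2 day 28 replicate 4, which held the highest Vsig4, Marco and Cd163 of its group, it was 0.05.

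**Figure D2:**
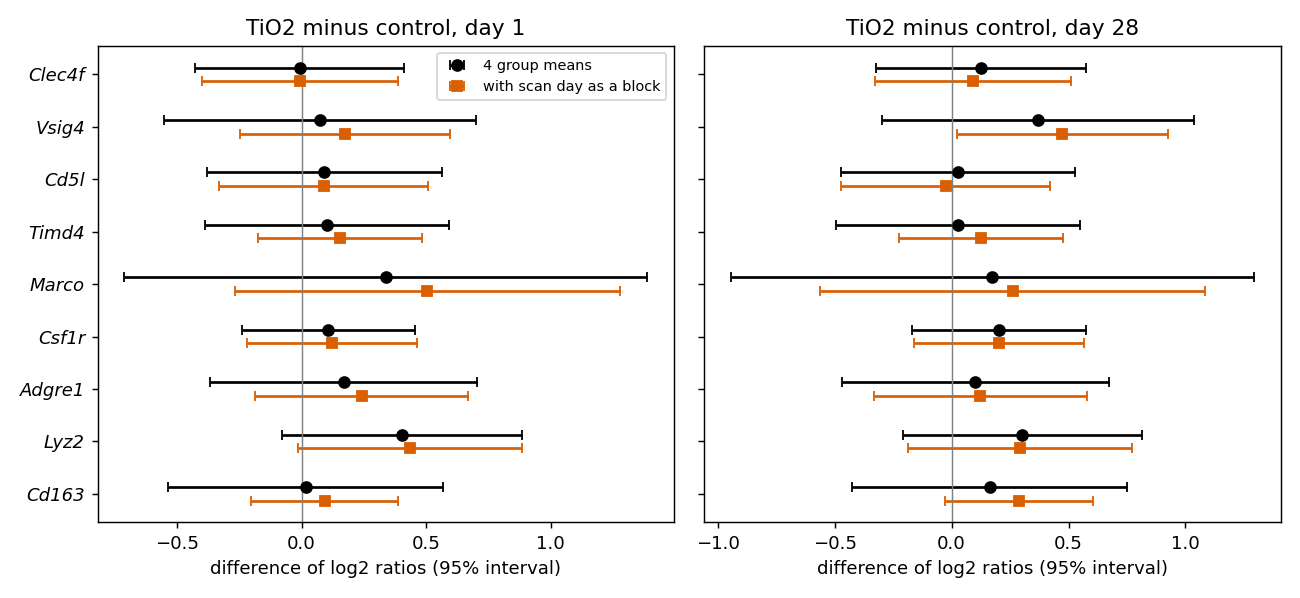
TiO2 minus control for each member (vertical axis) as a difference of log2 ratios with its 95% interval (horizontal axis), at day 1 (left) and day 28 (right), from the model of 4 group means (black circles) and with scan day as a block (orange squares). The intervals include 0 except for Vsig4 at day 28 with scan day as a block, where the difference is 0.47, and those of Marco are the widest.

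The TiO2 effect at day 28 was not told apart from that at day 1 for any member. The difference between the effects ranged from -0.16 for Marco to 0.29 for Vsig4, with 4 members higher and 5 lower and a median of -0.06, and its 95% interval included 0 for all 9 genes. Without TiO2 day 1 replicate 6, 9 of 9 lay above 0, with a median of 0.19. Within scan days 1, 2 and 3 the median was -0.23, 0.65 and -0.31, with 3, 9 and 3 members above 0. Adjusted p under 0.05 was met by 0% of features in either model. At an unadjusted p under 0.05 there were 0 of 9 members against 0.76% of features, and 0 of 9 against 3.00% with scan day as a block. Controls at day 28 set against controls at day 1 gave differences from -0.22 for Clec4f to 0.19 for Lyz2, with 3 members higher, 6 lower and a median of -0.04. Here too 0% of features passed after adjustment in either model, the unadjusted counts were 0 of 9 against 3.01% and 0 of 9 against 7.73%, and the groups failed to overlap for 0 of 9 members and 0.686% of features. These comparisons share control mice with those above.

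For most members more of the variance went with scan day than with treatment and time. Scan day accounted for 67.9% of the variance over the 21 arrays for Cd163, 55.2% for Timd4, 47.9% for Vsig4, 42.3% for Marco and 33.7% for Adgre1, whereas the 4 groups accounted for 1.07 to 6.48% of these 5. Cd163 averaged 1.84 on scan day 1, 2.69 on scan day 2 and 2.09 on scan day 3, and Marco 3.09, 4.21 and 4.38. For Lyz2 and Csf1r the order was the other way round, with 8.90% and 4.07% for scan day and 21.5% and 12.0% for group. Arrays of scan day 2 also had the most liver probes above background, 20879 to 26616. Reference probes above background numbered 21160 to 25456 on these arrays and 24828 to 29938 on those of the other scan days. The part of either channel in the members' levels was not tested.

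Across mice the members varied together. With the means of group and of scan day removed, all 36 pairs of the 9 genes had a Pearson r above 0 over the 21 arrays, from 0.14 for Clec4f with Lyz2 to 0.92 for Clec4f with Cd5l, with a median of 0.63. Adgre1 and Lyz2 (0.82), Vsig4 and Timd4 (0.78) and Cd5l and Csf1r (0.77) were the next closest. Set against the mean of the other 8, a member's r ran from 0.58 for Cd163 to 0.84 for Timd4. These are descriptions over mice that share a reference RNA, slides and scan days. Without TiO2 day 1 replicates 6 and 3, the mice farthest from the median, r stayed at 0.45 to 0.79 for 8 members and was 0.17 for Cd163.

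**Figure D3:**
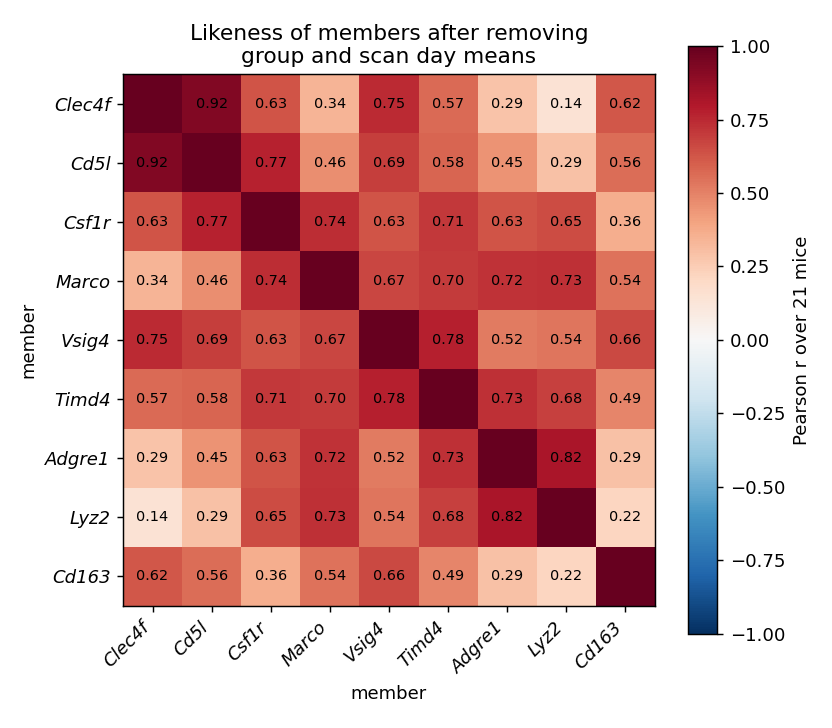
Pearson r between the log2 ratios of each pair of members over 21 mice, after the means of group and scan day were removed, with red above 0 and blue below. All 36 pairs are above 0, the highest being Clec4f with Cd5l at 0.92 and the lowest Clec4f with Lyz2 at 0.14.

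Single mice lay high or low in nearly the whole set. After the same removal, TiO2 day 1 replicate 6 lay above 0 for 9 of 9 members, from 0.42 to 1.56, with a mean of 0.68. TiO2 day 28 replicate 4 (mean 0.35) and control day 28 replicate 2 (0.24) also lay above 0 for 9 of 9. TiO2 day 1 replicate 3 (-0.44), TiO2 day 28 replicate 6 (-0.37) and control day 28 replicate 3 (-0.22) lay below 0 for 9 of 9. The highest and the lowest mean of all mice thus both belonged to the TiO2 group of day 1. The mean level of the 9 genes before removal was 2.68 ± 0.21 (SD, n = 5) in day 1 controls, 2.82 ± 0.45 (n = 6) in day 1 TiO2 mice, 2.63 ± 0.23 (n = 4) in day 28 controls and 2.79 ± 0.41 (n = 6) in day 28 TiO2 mice. TiO2 day 1 replicate 6 also had the highest mean of the 21 mice over the other Kupffer cell genes (2.43), the other mononuclear phagocyte genes (0.56), the recruited monocyte genes (-2.81, the next mouse also being at -2.81) and the neutrophil genes (1.75), and their part in its member levels was not tested.

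**Figure D4:**
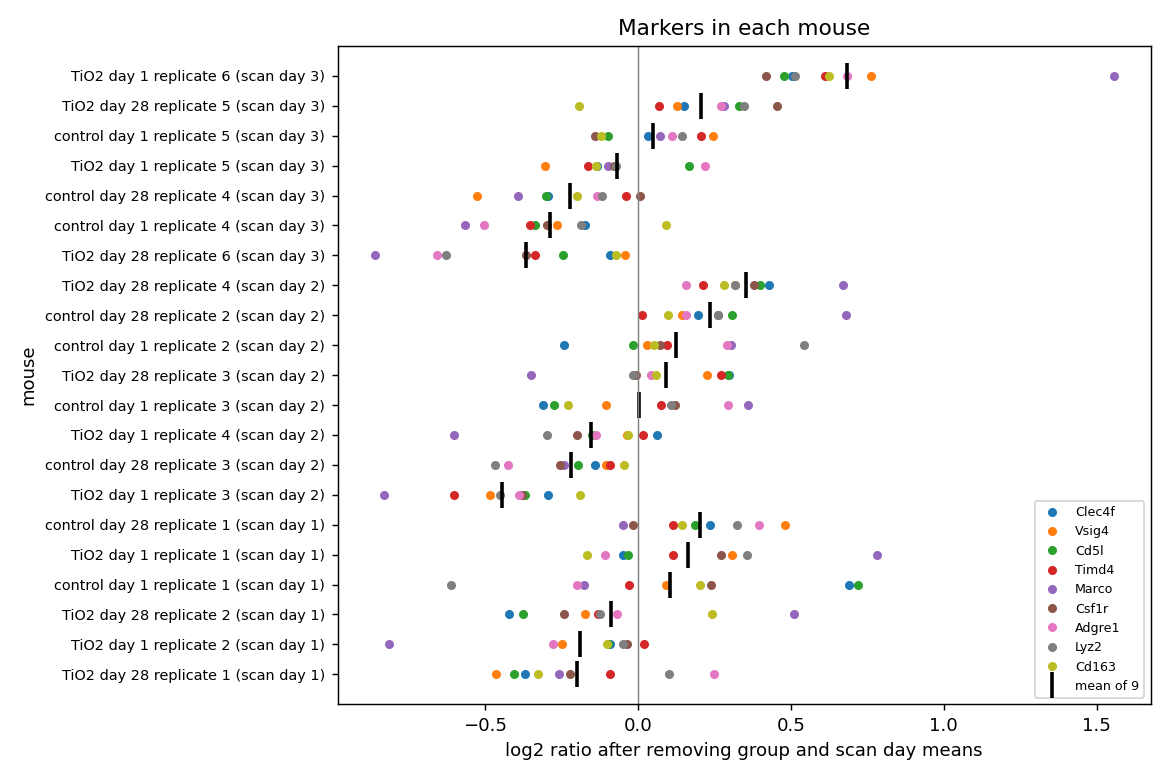
Log2 ratio of each member after the means of group and scan day were removed (horizontal axis, coloured points) in each of the 21 mice (vertical axis, ordered by scan day and by mean), with the mean of the 9 members as a black bar. In 3 mice all points lie above 0 and in 3 all lie below, and TiO2 day 1 replicate 6 has the highest mean, 0.68.

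The genes outside the set whose levels followed the mean of the 9 members most closely were named by rank of Pearson r over the same residual values. Cd300c2, an activating receptor of myeloid cells, had the highest r, 0.93 (Spearman's rho 0.89). It was followed by Pilrb1, an activating immunoglobulin-like receptor (0.90), Tgtp1, an interferon-induced GTPase (0.89), Cxcl13, a chemokine for B cells (0.89), and Il18bp, the secreted inhibitor of interleukin-18 (0.88). Cfp, or properdin, which stabilises the C3 convertase of the alternative complement pathway (0.87), the leukocyte surface glycoprotein Cd52 (0.87) and Cxcl9, a chemokine induced by interferon gamma (0.86), came next. The last of the 12 were the C-type lectin Clec4b1 (0.84), Ly86, the partner of the toll-like receptor relative Cd180 (0.84), the myeloid receptor Cd300e (0.84) and the signalling adaptor Tyrobp (0.83). Over 17468 features with complete values the median r was 0.03 and the 95th percentile 0.43. Without TiO2 day 1 replicates 6 and 3 the 12 genes had r of 0.65 to 0.87, and with only the group means removed r of 0.44 to 0.88. Within scan day 1, where few residual degrees of freedom remain (2), Ly86 and Tyrobp had r of -0.41 and -0.08. Cxcl13 was above background on 8 arrays only.

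Genes listed for other cells followed the members to differing degrees. The median r was 0.67 over 15 other Kupffer cell genes and 0.73 over 12 other genes of mononuclear phagocytes. It was 0.24 over 3 genes of recruited monocytes, 0.22 over 3 of neutrophils, 0.26 over 9 of T, B and NK cells, -0.09 over 4 of dendritic cells, 0.11 over 7 of sinusoidal endothelium, 0.13 over 6 of stellate cells, 0.22 over 4 of cholangiocytes and 0.16 over 5 of hepatocytes. The 4 alveolar macrophage and lung genes had a median of -0.04. Csf1 and Il34, the ligands of CSF1R, had r of 0.22 and 0.20, and 5 scavenger and phagocytic receptors a median of 0.21, with Msr1, scavenger receptor A, at 0.71. The order of the lists depended on the removal of scan day. With only the group means removed, the median r was 0.68 for other Kupffer cell genes, 0.54 for hepatocytes, 0.50 for scavenger and phagocytic receptors, 0.48 for sinusoidal endothelium, 0.43 for neutrophils and 0.36 for other mononuclear phagocyte genes. It was 0.24 for stellate cells, 0.21 for alveolar macrophage and lung genes, -0.10 for T, B and NK cells, -0.19 for the CSF1R ligands, -0.25 for recruited monocytes, -0.28 for dendritic cells and -0.29 for cholangiocytes. With the means of group and scan day removed, single genes of other lists reached values like those of the members. Among them were Cd79b of B cells (0.80) and Ear1, a ribonuclease of eosinophils and alveolar macrophages (0.75). Both were picked here after their values were seen, and other genes of their lists went the other way. The T, B and NK cell genes ran from -0.48, for Cd79a of B cells, to 0.80. The alveolar macrophage and lung genes ran from -0.36, for Scgb1a1, to 0.75.

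**Figure D5:**
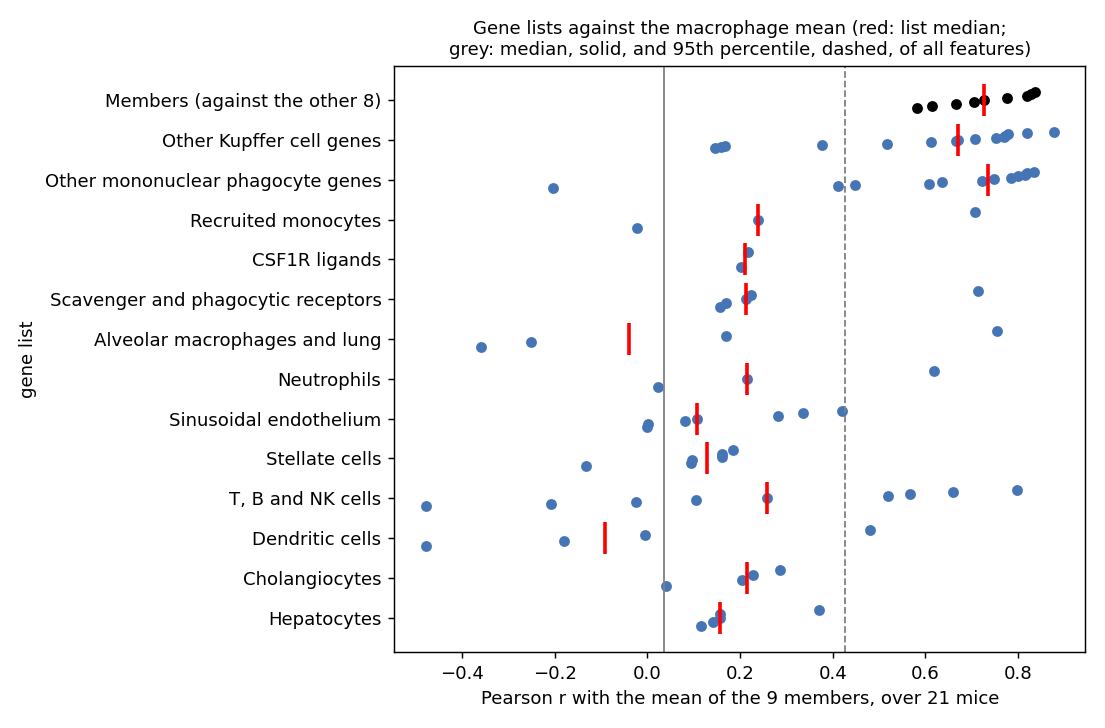
Pearson r of each gene with the mean of the 9 members over 21 mice, after the means of group and scan day were removed (horizontal axis), by gene list (vertical axis), with members set against the mean of the other 8. Red bars are list medians and grey lines the median, 0.03, and 95th percentile, 0.43, over all features. The medians of the other Kupffer cell genes (0.67) and the other mononuclear phagocyte genes (0.73) lie to the right of the dashed line.

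The other Kupffer cell genes were 15, all of them measured. At day 1, 8 lay higher and 7 lower with TiO2 (median 0.04), and at day 28, 11 and 4 (median 0.10), with 0 of 15 called at either time. The mean level of the list averaged 1.93 in day 1 TiO2 mice and 1.88 in day 1 controls. Its medians over the same mice were 1.88 and 1.95, so the direction at day 1 differed between mean and median. TiO2 day 1 replicate 6 lay highest, at 2.43. The subunits of C1q, the recognition molecule of the classical complement pathway, did not pass either. C1qa differed by -0.21 ± 0.46 (SE) at day 1 and 0.40 ± 0.49 at day 28, C1qb by 0.28 ± 0.22 and 0.48 ± 0.23, and C1qc by 0.36 ± 0.28 and 0.14 ± 0.30. The lowest unadjusted p at day 1 was that of Folr2, folate receptor beta (0.56 ± 0.25, unadjusted p = 0.039 in limma, higher than the control mean in 5 of 6 mice). At an unadjusted p under 0.05 there was 1 of 15 at day 1 with the group means alone, against 1.73% of features. With scan day as a block there were 3 of 15, against 4.09% of features. All 3 lay higher: Folr2 (0.62), C1qc (0.47) and Siglec1, the sialic acid receptor CD169 (0.26), whose probe was above background on 11 arrays. At day 28 there were 0 of 15 with the group means alone, against 0.93% of features. With scan day as a block there were again 3 of 15, against 3.07% of features. All 3 lay higher: C1qb (0.51), C1qa (0.57) and Clec1b, the receptor for podoplanin (0.67), the last named after its values were seen. Il18bp at day 1 (0.26 ± 0.17) and Fcna, a ficolin that starts the lectin pathway of complement, at day 28 (0.18 ± 0.18) were also among the 3 lowest p of the list. The adjusted p of all these genes in the model with scan day was 0.99 at day 1 and 1.00 at day 28.

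Of 16 further mononuclear phagocyte genes, 12 passed the filter on dim probes, and those 12 were kept through any group in which they were bright. At day 1, 11 lay higher and 1 lower (median 0.11), and at day 28, 9 and 3 (median 0.13), with 0 called. An unadjusted p under 0.05 in limma was met at day 1 by 0 of 12 in either model, against 1.73% and 4.09% of features. At day 28 it was met by 1 of 12 with the group means alone, against 0.93%, and by 1 of 12 with scan day as a block, against 3.07%. Fcer1g, the shared signalling chain of Fc receptors, had the lowest p at both times, 0.24 ± 0.15 (SE) at day 1 and 0.36 ± 0.16 at day 28 (unadjusted p = 0.030 in limma), where all 6 TiO2 values exceeded the mean of the controls. At day 1 it was followed by Aif1, the actin-binding protein IBA1 (0.34 ± 0.21). At day 28 the next were the Fc receptors Fcgr3 (0.21 ± 0.13) and Fcgr1 (0.25 ± 0.26). Tyrobp differed by 0.20 ± 0.17 and 0.15 ± 0.18 and Ctss, the lysosomal protease cathepsin S, by 0.02 ± 0.36 and 0.26 ± 0.38. The ligands of CSF1R did not pass either, with Csf1 at -0.00 ± 0.16 and 0.08 ± 0.17 and Il34 at -0.08 ± 0.11 and -0.10 ± 0.12. Spi1, which encodes PU.1, was above background on 0 of 21 arrays.

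Monocyte, lung and neutrophil markers were examined because these cells share transcripts with the members. Ccr2, which defines monocytes newly arrived from the blood, was above background on 1 of 21 arrays, and of 7 genes of recruited monocytes 3 could be tested. These were Chil3 (0.18 ± 0.18 (SE) at day 1 and 0.17 ± 0.19 at day 28), Plac8 (0.14 ± 0.22 and 0.06 ± 0.23) and S100a4 (0.20 ± 0.33 and 0.20 ± 0.35). The mean level of these 3 genes ran from -3.73 to -3.00 in day 1 controls and from -3.55 to -2.81 in day 1 TiO2 mice, and the spans at day 28 were -3.67 to -3.03 and -3.56 to -2.81. Of 8 genes of alveolar macrophages and lung, 4 passed the filter. Fabp4, a fatty acid binding protein of alveolar macrophages that capillary endothelium and fat also express, differed by -0.40 ± 0.15 at day 1 (unadjusted p = 0.016, adjusted p = 1.00 in limma) with 0 of the 6 TiO2 values above the mean of the controls, and by 0.09 ± 0.16 at day 28. Of 3 neutrophil genes tested, 2 lay higher and 1 lower at each time. S100a8, above background on 9 arrays, and S100a9 differed by 0.17 ± 0.17 and 0.48 ± 0.39 at day 1 and by 0.11 ± 0.18 and 0.57 ± 0.41 at day 28, and Csf3r, the receptor for the growth factor G-CSF, by -0.17 ± 0.11 and -0.02 ± 0.12. The neutrophil list spanned 0.75 to 1.32 in day 1 controls and 0.84 to 1.75 in TiO2 mice, and its part in the Lyz2 difference was not tested.

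The lists of other liver cells gave 0 calls at either time. Sinusoidal endothelium, which shares scavenger receptors with Kupffer cells, had 0 of 7 genes higher at day 1 (median -0.08) and 7 of 7 higher at day 28 (median 0.21), with Stab2 at -0.08 ± 0.11 (SE) and 0.21 ± 0.12. Its mean level ran from 1.97 to 2.73 in day 28 controls and from 2.03 to 2.72 in TiO2 mice. An unadjusted p under 0.05 in limma was met by 0 of these 7 genes at either time with the group means alone, against 1.73% and 0.93% of features. With scan day as a block it was met by 0 of 7 at day 1, against 4.09%, and by 1 of 7 at day 28, against 3.07%. Lrat of stellate cells differed by -0.14 ± 0.29 and -0.06 ± 0.31, Krt19 of cholangiocytes by 0.15 ± 0.30 and -0.11 ± 0.32, and Alb of hepatocytes by -0.04 ± 0.16 and -0.10 ± 0.17. All 5 hepatocyte genes tested lay lower at day 1, with a median of -0.21 and Ttr, the carrier of thyroid hormone, lowest at -0.58 ± 0.54. At day 28, 3 lay higher and 2 lower, with a median of 0.01. Their part in the members' differences was not tested. Of lymphocyte and dendritic cell markers, Cd3e differed by 0.13 ± 0.48 and -0.07 ± 0.51, Cd79a by 0.07 ± 0.12 and 0.05 ± 0.13, and Flt3 by 0.19 ± 0.10 and -0.08 ± 0.11.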

How the data were processed

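Liver RNA of 21 mice was measured on arrays with 2 colours and a shared reference. The deposited spot values are intensity, the median brightness of spot and local background in each channel, not normalized per the file headers. The scanner software's own ratio, also deposited, is the log10 of red over green after background and dye correction by Feature Extraction 10.7.3.1, per the file headers (the submitters' processing notes name Agilent Feature Extraction 9.5.3.1). The table of processed log2 values that the authors deposited does not state scale, centring or direction. Its columns (medians -0.0579 to -0.0112) correlated at 0.9957 to 0.9971 with red over green ratios of the same arrays without background subtraction, which sets scale and direction and leaves the centring unknown.

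Background was corrected in limma 3.58.1 (R 4.3.3) by normexp with an offset of 50, then loess within each array. For normexp, spots with an uneven signal or background (0 to 156 per array) were given the array's median background. Uneven or outlying spots (103 to 493) were left out, and spots of 1 probe were averaged. A probe stayed in if its liver signal cleared background on at least 50% of the arrays of 1 group or more (21405 of 41174). Symbols came from RefSeq accessions through a gene table of GRCm38.p6 (23374 probes with 1 symbol, 0 with several, 17800 with none). The headers name build mm8. With 1 probe per gene, that of highest mean liver signal, 17640 features remained, of which 172 lacked a value on at least 1 array. One limma model of 4 group means over all arrays, with empirical Bayes and Benjamini-Hochberg adjustment over all features (threshold 0.05), gave every difference, SE and p-value. The number of arrays limits the precision. The script was tested on simulated data.

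The members and gene lists were chosen with earlier results of these data known. The rule for named genes took the members, the 12 genes nearest to their mean, and the defining genes and up to 3 lowest p-values of each list per TiO2 comparison. Of lists far from macrophages mainly the defining genes are printed. A gene that the rule takes is not reported here. Alternatives were other normalizations, background corrections and filters, scan day and slide as blocks, the deposited tables, the liver channel alone, and leaving out each mouse.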

Additional observations from a re-analysis of the deposited data

How the results depend on the processing

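No member passed at an adjusted p under 0.05 in any fit run. The count of features passing at day 1 was 0 with the group means and 3 with slide as a random block, and ranged from 0 to 3 over the fits without 1 mouse, with 3 without TiO2 day 1 replicate 2. For the controls over time that range was 0 to 1, with 1 without control day 1 replicate 4. Within scan day 2 the median difference between the effects was 0.65, against -0.23 and -0.31 within scan days 1 and 3. Lyz2 at day 1 lay above 0 in all 12 other ways of processing and without any 1 mouse. Among those ways, the other filters on dim probes and the fit of only the groups compared left its difference unchanged, so they could not test it. Some members changed sign, and the cause was not tested. This happened with slide as a random block, in day 1 (Clec4f 0.0041), the difference between the effects (Timd4 0.015), control day 28 against day 1 (Cd5l 0.0058, Timd4 -0.077, Marco 0.0012). With the deposited table of processed values, in day 1 (Cd163 -0.011), day 28 (Cd5l -0.049, Timd4 -0.012), control day 28 against day 1 (Cd5l 0.0090, Marco 0.021). With the ratios of the scanner software, in day 1 (Vsig4 -0.18, Cd5l -0.23, Timd4 -0.22, Cd163 -0.077), day 28 (Cd5l -0.54, Timd4 -0.35), the difference between the effects (Csf1r -0.014, Adgre1 0.074, Lyz2 0.099), control day 28 against day 1 (Cd5l 0.26, Adgre1 -0.11, Lyz2 -0.0048). With no background subtraction, in day 1 (Cd163 -0.014), day 28 (Cd5l -0.076, Timd4 -0.012), control day 28 against day 1 (Cd5l 0.0028). With a normexp offset of 10, in day 1 (Cd5l -0.022), day 28 (Cd5l -0.15), control day 28 against day 1 (Cd5l 0.0091). With quantile normalization between arrays, in day 1 (Clec4f 0.058), control day 28 against day 1 (Cd5l 0.098, Marco 0.072). With the liver channel alone, in day 1 (Clec4f 0.059), the difference between the effects (Cd5l 0.018, Cd163 -0.020), control day 28 against day 1 (Clec4f 0.076, Cd5l 0.021, Marco 0.12). With scan day as a block, in day 28 (Cd5l -0.026), control day 28 against day 1 (Cd5l 0.0059, Marco 0.053). Without 1 mouse, signs changed 74 times. At day 1 the ranges were -0.14 to 0.16 for Clec4f, -0.094 to 0.22 for Vsig4, -0.044 to 0.28 for Cd5l, -0.033 to 0.21 for Timd4, -0.073 to 0.67 for Marco, -0.024 to 0.30 for Adgre1, -0.084 to 0.14 for Cd163. At day 28 the ranges were -0.091 to 0.11 for Cd5l, -0.11 to 0.13 for Timd4, -0.15 to 0.49 for Marco, -0.018 to 0.19 for Adgre1. For the difference between the effects the ranges were -0.035 to 0.26 for Clec4f, -0.25 to 0.071 for Cd5l, -0.21 to 0.060 for Timd4, -0.49 to 0.25 for Marco, -0.010 to 0.19 for Csf1r, -0.20 to 0.13 for Adgre1, -0.27 to 0.096 for Lyz2, -0.011 to 0.30 for Cd163. For the controls over time the ranges were -0.31 to 0.020 for Vsig4, -0.16 to 0.14 for Cd5l, -0.074 to 0.17 for Timd4, -0.34 to 0.30 for Marco, -0.051 to 0.23 for Adgre1, -0.0078 to 0.36 for Lyz2. No paired analysis was possible because the replicate numbers follow the order of deposit and the labels tie no mice together by number. Most slides held TiO2 and control mice, and slide entered as a random block (correlation 0.49). With 4 to 6 mice a group and intervals such as -0.71 to 1.39 for Marco at day 1, differences of that size could not be told from 0.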
